A study of Homo sapiens with 12 samples.

Results

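Proteins that enter the endoplasmic reticulum (ER) pass through a short chain of machines, and the 44 genes described here code for their subunits. They are 6 genes of the signal recognition particle (SRP), 2 of its receptor, 4 of the Sec61 channel, the pair SEC62 and SEC63, 5 of the TRAP and TRAM proteins beside the channel, 5 of the signal peptidase, 11 of the oligosaccharyltransferase and 9 of the ER membrane protein complex (EMC). The genes were taken by name from a list of subunits. No measured value enters that rule, but the list was drawn up with earlier results of these data known. All 44 were among the 21439 genes of the deposited table, and all 44 were among the 17823 genes with enough counts to be tested.

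The libraries were made from DU145, a line of human prostate cancer cells that grows without androgen, in 4 groups of 3. siATF6 cells were transfected with an siRNA against ATF6 and siCtrl cells with the Allstar control siRNA, and both were kept in culture for 24 h. Ceapin cells received 10 µM Ceapin-A7, a compound that keeps the ATF6 protein in the ER, and DMSO cells received the solvent, both for 12 h. Every group, controls included, also received 30 nM thapsigargin (Tg), a blocker of the ER calcium pump that provokes ER stress, for the last 3 h, so all values are those of stressed cells of a single line. The labels do not say whether the libraries of a group came from separate cultures, so p-values measure the spread between these libraries, which may be technical.

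As background, SRP binds the signal sequence of a growing protein and brings the ribosome to its receptor on the ER. The Sec61 channel then takes in the chain, the signal peptidase cuts off the signal sequence, and the oligosaccharyltransferase attaches N-linked sugar chains. The EMC inserts membrane helices that Sec61 handles poorly. ATF6 is an ER-anchored transcription factor that is released under ER stress and is best known for raising ER chaperone and degradation genes, through promoter elements of the ERSE type.

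Libraries held 17760878 to 19202632 counts. ATF6 stood at 25.1 to 26.6 CPM (counts scaled to a common library size after TMM) in siATF6 libraries, against 123.4 to 125.6 CPM in siCtrl libraries. It stood at 70.9 to 74.7 CPM in Ceapin libraries, against 69.3 to 73.3 CPM in DMSO libraries. A label field that names the ATF6 siRNA for the Ceapin libraries therefore goes against both their titles and their ATF6 level, while the control siRNA that the same field names for the DMSO libraries could not be checked. The 5 epithelial markers looked for were all in the table. Their summed level was 443.9 to 473.0 CPM in siATF6 and 500.9 to 519.6 CPM in siCtrl, and 1337 to 1400 CPM in Ceapin and 1384 to 1424 CPM in DMSO. Of 6 markers of androgen-dependent prostate cells 3 were in the table (not KLK3, KLK2 or FOLH1), with sums of 51.6 to 52.9 CPM in siATF6 and 47.97 to 52.7 CPM in siCtrl, and 37.99 to 40.97 CPM in Ceapin and 33.9 to 35.4 CPM in DMSO. Of 4 leukocyte markers 1 was in the table (not PTPRC, CD3E or CD68), at no more than 0.890 CPM in any library. Of 4 fibroblast markers 2 were (not DCN or LUM), at 3.64 to 4.79 CPM summed, and all 3 endothelial markers were, at 0.997 to 1.37 CPM summed in siATF6 and 1.17 to 1.44 CPM in siCtrl, and 2.25 to 2.40 CPM in Ceapin and 2.16 to 2.71 CPM in DMSO. The part of these lists in the results was not tested.

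After ATF6 siRNA the ER entry machinery did not move as a block. Of the 44 members, 12 rose, 11 fell and 21 did not pass the threshold (edgeR quasi-likelihood test, Benjamini-Hochberg adjusted p under 0.05), where 31.4% of all tested genes were called, 16.1% higher and 15.3% lower. The members called came to 52.3%. Tested genes averaging 10 CPM or more were also called more often, at 49.6%. That set is not matched to the members' levels and leaves out EMC6 and EMC9, which average less than 10 CPM. The median log2 fold change of the members was 0.01 (−0.0026 with library totals). It was −0.0003 over all tested genes and 0.02 over those averaging 10 CPM or more. The median size of the change, whatever its sign, was 0.10 for the members. It was 0.15 for all tested genes and 0.12 for those averaging 10 CPM or more. Of the 44 members, 5 changed by more than 0.3 on the log2 scale: SPCS3, EMC7, SEC61A2 and DAD1 fell and EMC6 rose. So did 4117 of 17823 tested genes and 1304 of the 9647 averaging 10 CPM or more. Without siCtrl replicate 2, 7 members rose and 9 fell. In bulk RNA, fewer expressing cells and less RNA per cell cannot be told apart. After Ceapin-A7, 1 member passed the threshold, SPCS1, which fell (2.27% of the members). Of all tested genes 4.62% were called, 2.21% higher and 2.41% lower, and of those averaging 10 CPM or more 7.86%. No member was called in both comparisons.

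**Figure D1:**
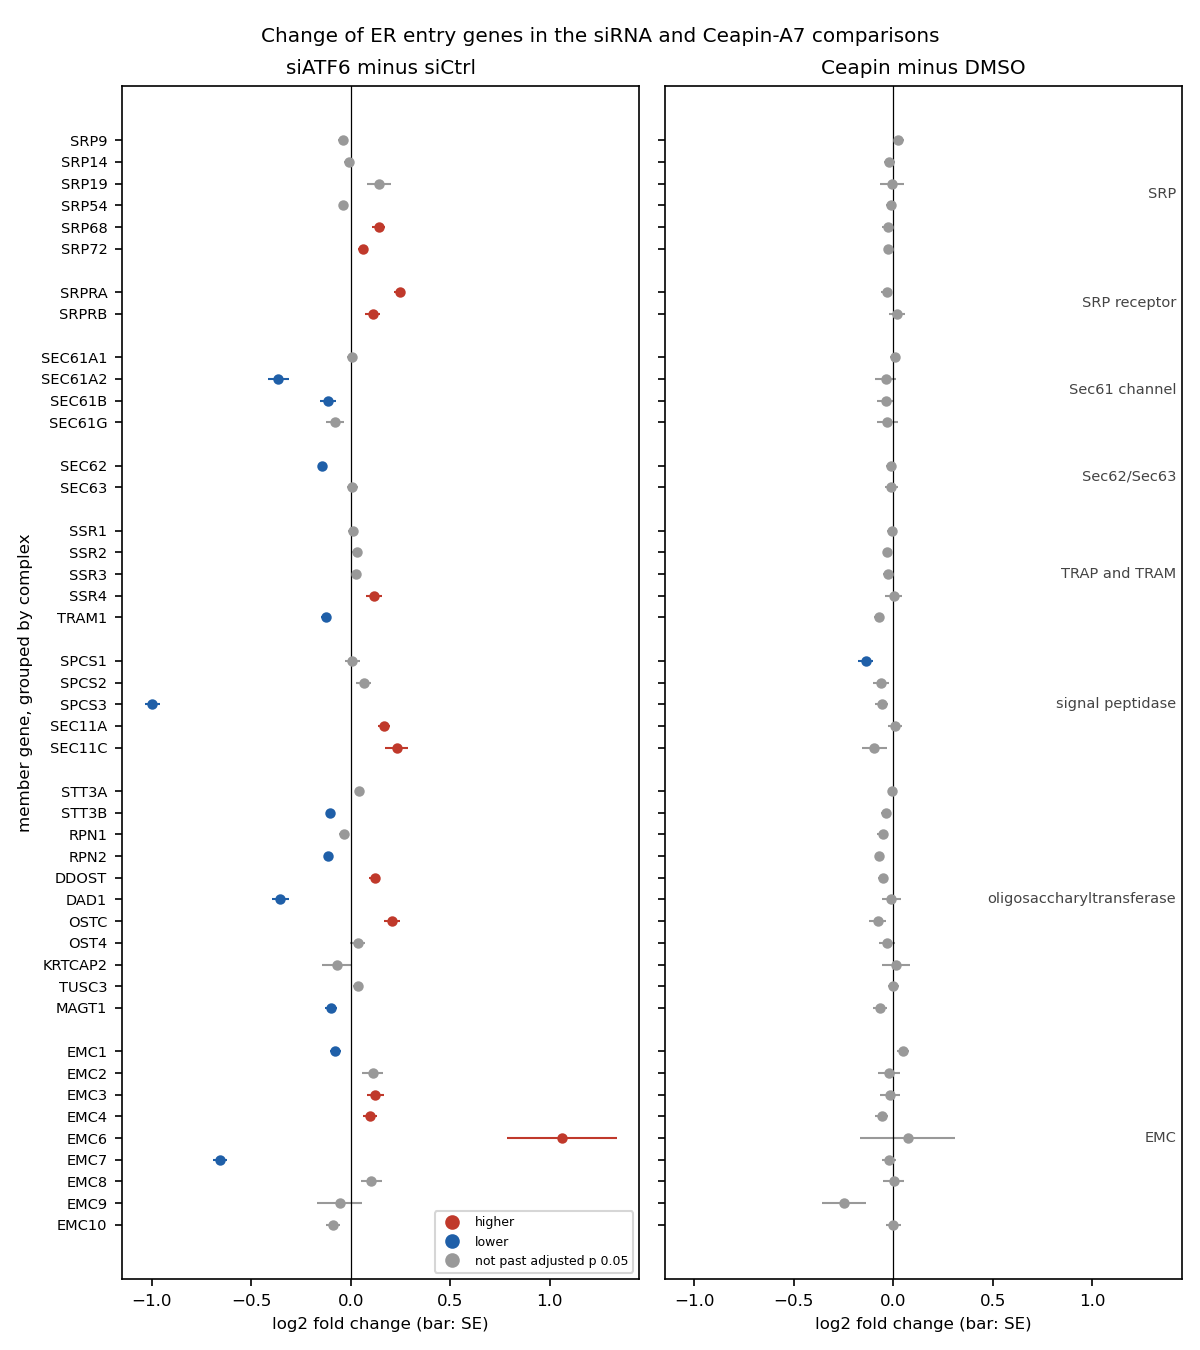
Log2 fold changes of the 44 members, grouped by complex, for siATF6 minus siCtrl (left) and Ceapin minus DMSO (right), with bars for the SE of fits to 3 libraries per group. Red and blue mark members higher and lower at edgeR adjusted p under 0.05; SPCS3 at −0.998, EMC7 at −0.66 and EMC6 at 1.06 stand far from the rest on the left, and SPCS1 is the single coloured point on the right.

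SPCS3 and EMC7, which had the largest falls, both hold the 7-base word GAGTCAT in the 3′ UTR of their main transcript. This word was picked in an earlier pass over these same libraries, from the 3′ UTRs of genes that fell after ATF6 siRNA. Its counts among fallen genes are therefore a description and no independent support. Besides these, the members SPCS2 and SRPRB hold the word, as do SERP1 and MMGT1, a pair of related genes that also fell, and the ATF6 mRNA itself holds it at 2 sites. The windows are from the GENCODE v29 annotation of GRCh38, 5′ to 3′ on the strand of the mRNA, with the word in capitals.
SPCS3 (chr4:176328681-176328709, + strand): aggtgcctgtaGAGTCATaataactgtat
EMC7 (chr15:34084223-34084251, − strand): actataaacttGAGTCATcccgacgttga
SPCS2 (chr11:74977733-74977761, + strand): tgaaaaaaatgGAGTCATagttttgatgg
SRPRB (chr3:133820385-133820413, + strand): acaaacccttgGAGTCATtcccagataat
SERP1 (chr3:150544285-150544313, − strand): ggtttcttcatGAGTCATtccaagttttc
MMGT1 (chrX:135963706-135963734, − strand): gctttaggcatGAGTCATaagatgccatt
ATF6, first site (chr1:161962219-161962247, + strand): caatgttatgtGAGTCATtcttaagtgtt
ATF6, second site (chr1:161962880-161962908, + strand): tcatcagtcctGAGTCATtttaacttaca

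The annotation gave 42 members a 3′ UTR of 50 bases or more, and 4 of them held the word. Of these 4 carriers, 2 fell (SPCS3 and EMC7), 1 rose (SRPRB) and 1 was not called (SPCS2), while 9 of the 38 members without it fell. DAD1, SEC61A2, SEC62 and the other members that fell did not hold it. Among related genes, 4 of 5 carriers fell (SERP1, MMGT1, ALG10B and MPDU1, but not ALG14), against 5 of 57 genes without the word. Over all tested genes with such a 3′ UTR the shares that fell were 47.19% of 1015 carriers and 16.35% of 12343 others. Carriers also had the longer 3′ UTRs, with medians of 3340 and 1015 bases, and the part of length was not tested. After Ceapin-A7 no carrier among members and related genes was called, and the shares of all genes that fell were 3.74% of carriers and 2.97% of others.

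**Figure D2:**
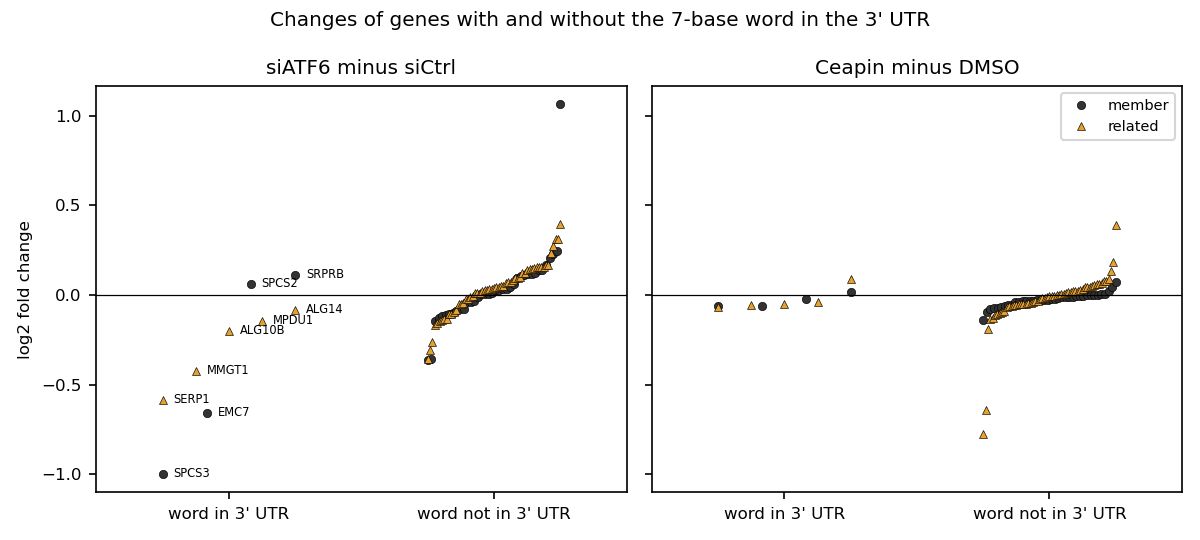
Log2 fold changes of members (dots) and related genes (triangles) with the 7-base word in the 3′ UTR and without it, for siATF6 minus siCtrl (left) and Ceapin minus DMSO (right), spread sideways by rank. On the left SPCS3, EMC7, SERP1 and MMGT1 reach the lowest values among the carriers while SPCS2 and SRPRB lie above 0; on the right all carriers lie near 0.

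At the targeting step, 2 of 6 SRP genes rose (SRP68 and SRP72), both receptor genes rose (SRPRA and SRPRB), and none of these genes fell. These are few genes, and 31.4% of all tested genes were called (16.1% higher), and 49.6% of those averaging 10 CPM or more. SRPRA, a GTPase subunit of the receptor (chromosome 11, 126262919 to 126269144, − strand), stood at 307.0, 303.8 and 300 CPM in siATF6 libraries, against 255.9, 252.1 and 260.4 CPM in siCtrl libraries. The groups did not overlap, and the rise was 1.19-fold (log2 fold change 0.25 with SE 0.0263, edgeR adjusted p = 3.69e-09). In the compound arm SRPRA stood at 195.6, 213.1 and 210.8 CPM in Ceapin libraries, against 214.4, 214.0 and 205.5 CPM in DMSO libraries. Those groups overlapped, and the difference between the 2 effects was 0.28 (with SE 0.0385, edgeR adjusted p = 8.99e-07).

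SRP68 and SRP72 form the heterodimer that links SRP to its receptor and to the ribosome. SRP68 averaged 109.0 ± 2.44 CPM in siATF6 and 99.0 ± 3.41 CPM in siCtrl (SD, n = 3 each), a log2 fold change of 0.14 (with SE 0.0311, edgeR adjusted p = 5.65e-04). SRP72 averaged 204.1 ± 0.137 CPM in siATF6 and 195.5 ± 0.994 CPM in siCtrl (log2 fold change 0.06, edgeR adjusted p = 0.0482). Of the 23 calls it was lost most often, under 15 of 20 alternative settings. They include each siATF6 library, siCtrl replicate 1 or 2, Ceapin replicate 1 or 3 and each DMSO library left out (edgeR adjusted p of 0.0554 to 0.156). SRPRB, which anchors the receptor in the membrane, averaged 74.4 ± 1.116 CPM in siATF6 and 69.0 ± 1.66 CPM in siCtrl (log2 fold change 0.11, edgeR adjusted p = 0.0172), and this call was lost without siATF6 replicate 3 (0.0900), siCtrl replicate 2 (0.0541) or siCtrl replicate 3 (0.0588).

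The 4 SRP genes that were not called had log2 fold changes of −0.04 for SRP9 and −0.01 for SRP14, whose products slow the ribosome, −0.04 for SRP54, the signal sequence binding subunit, and 0.14 for SRP19, an assembly factor. SRP19 had non-overlapping groups, at 19.3 to 20.3 CPM in siATF6 and 17.6 to 18.1 CPM in siCtrl, but an edgeR adjusted p of 0.0845. SRP9 and SRP19 share 15.93% and 21.72% of their 31-base words with other annotated transcripts, so their counts are uncertain. SRP72 shares 10.16%, most often with SRP72P2.

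At the channel itself SEC61A1, the main pore-forming subunit, differed by less than the spread between replicates, at 333.4 ± 6.50 CPM in siATF6 and 332.2 ± 4.19 CPM in siCtrl (log2 fold change 0.01, edgeR adjusted p = 0.893). Its paralog SEC61A2 (chromosome 10, 12129637 to 12169961, + strand) fell. SEC61A2 stood at 26.5, 24.0 and 26.1 CPM in siATF6 libraries, against 31.9, 33.0 and 33.8 CPM in siCtrl libraries. Every siATF6 library lay below every library of the other 3 groups, which ranged from 30.1 to 33.9 CPM. The fall was 1.29-fold (log2 fold change −0.36 with SE 0.0523, edgeR adjusted p = 1.11e-06), against −0.04 after Ceapin-A7 (95% interval −0.14 to 0.06). Per kb of transcript, SEC61A1 exceeded SEC61A2 by a factor of 6.79 in siATF6 and 5.26 in siCtrl, and of 4.18 in Ceapin and 4.05 in DMSO.

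SEC61B, a small channel subunit, also fell (log2 fold change −0.11, edgeR adjusted p = 0.0318), but its groups overlapped, at 46.5 to 50.9 CPM in siATF6 and 50.4 to 55.0 CPM in siCtrl. The call was lost without siATF6 replicate 1 (0.0853) or 3 (0.169) and without siCtrl replicate 2 (0.185) or 3 (0.0793). SEC61G, the other small subunit, was not called (−0.08, adjusted p = 0.204 in edgeR). SEC62, which with SEC63 serves chains that the ribosome route handles poorly, averaged 191.1 ± 2.73 CPM in siATF6 and 210.9 ± 1.66 CPM in siCtrl and fell (log2 fold change −0.14 with SE 0.0243, edgeR adjusted p = 1.76e-05). SEC63 was not called, at 168.9 ± 2.04 CPM in siATF6 and 168.2 ± 3.94 CPM in siCtrl. It shares 11.39% of its words with other transcripts, most often with SEC63P1.

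Beside the channel sit the TRAP complex, which helps certain signal sequences to open it, and TRAM1, a membrane protein that contacts the entering chain. TRAM1 fell after ATF6 siRNA. It stood at 463.7, 440.2 and 449.9 CPM in siATF6 libraries, against 478.1, 494.3 and 504.5 CPM in siCtrl libraries. These groups did not overlap (log2 fold change −0.13 with SE 0.0242, edgeR adjusted p = 9.52e-05). The TRAP subunit SSR4 rose (0.12, edgeR adjusted p = 0.0245), a call lost without siATF6 replicate 2 (0.0545) or 3 (0.0829) or siCtrl replicate 2 (0.103). SSR4 averaged 40.1 CPM in siCtrl and 43.5 CPM in each of siATF6, Ceapin and DMSO, so the siCtrl libraries were the lowest. SSR1, SSR2 and SSR3, the other TRAP subunits, had log2 fold changes of 0.01, 0.03 and 0.03 and were not called.

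In the signal peptidase, SPCS3 had the largest fall of all members while the catalytic subunits SEC11A and SEC11C rose. SPCS3, an accessory subunit that the enzyme needs (chromosome 4, 176319964 to 176332245, + strand), stood at 46.3, 43.7 and 45.0 CPM in siATF6 libraries, against 87.05, 89.6 and 92.9 CPM in siCtrl libraries. The siATF6 libraries lay far below the libraries of all 3 other groups, of which the lowest was a Ceapin library at 80.7 CPM. The fall was 2.00-fold (log2 fold change −0.998 with SE 0.0377, edgeR adjusted p = 2.41e-20). The windows printed above include the word site of SPCS3, at base 362 of a 3′ UTR of 3915 bases.

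In the compound arm SPCS3 stood at 83.4, 86.2 and 80.7 CPM in Ceapin libraries, against 85.4, 89.0 and 86.5 CPM in DMSO libraries. The groups overlapped, the log2 fold change was −0.06 (95% interval −0.13 to 0.01, edgeR adjusted p = 0.423), and a fall of the size seen after the siRNA lies outside that interval. The difference between the 2 effects was −0.94 (with SE 0.0512, edgeR adjusted p = 9e-16). The arms differ in agent, transfection and duration, which cannot be told apart.

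Of the catalytic subunits, SEC11C (chromosome 18, 59139477 to 59158836, + strand) stood at 31.8, 28.8 and 31.5 CPM in siATF6 libraries, against 27.4, 26.3 and 24.8 CPM in siCtrl libraries. The groups did not overlap, and SEC11C rose 1.17-fold (log2 fold change 0.23 with SE 0.0564, edgeR adjusted p = 0.00161). SEC11A averaged 140.2 ± 4.54 CPM in siATF6 and 125.0 ± 1.96 CPM in siCtrl (0.17 with SE 0.0301, edgeR adjusted p = 4.44e-05). It shares 8.06% of its 31-base words with other transcripts, most with SEC11B. SPCS1 and SPCS2, accessory subunits beside the active site, were not called after the siRNA, with log2 fold changes of 0.01 and 0.06. SPCS2 shares 21.51% of its 31-base words with other transcripts, most often with the copy SPCS2P4 (94 to 173 counts per library), so its counts are uncertain.

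SPCS1 was the member called after Ceapin-A7. It stood at 64.4, 69.5 and 67.3 CPM in Ceapin libraries, against 71.4, 73.9 and 76.2 CPM in DMSO libraries. The groups did not overlap but lay close, and the fall was 1.10-fold (log2 fold change −0.14 with SE 0.0379, edgeR adjusted p = 0.0244). The call was lost without Ceapin replicate 1 (adjusted p = 0.172), Ceapin replicate 3 (0.0635), DMSO replicate 2 (0.0708) or DMSO replicate 3 (0.148), and with DESeq2 (0.0845). After ATF6 siRNA SPCS1 averaged 75.8 ± 0.582 CPM in siATF6 and 75.5 ± 3.25 CPM in siCtrl. The difference between the 2 effects was 0.15 (edgeR adjusted p = 0.0385), a call lost under 9 of 19 settings. They include siATF6 replicate 2 or 3, siCtrl replicate 2, Ceapin replicate 1 or 3 and DMSO replicate 2 or 3 left out (edgeR adjusted p of 0.0635 to 0.160).

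**Figure D3:**
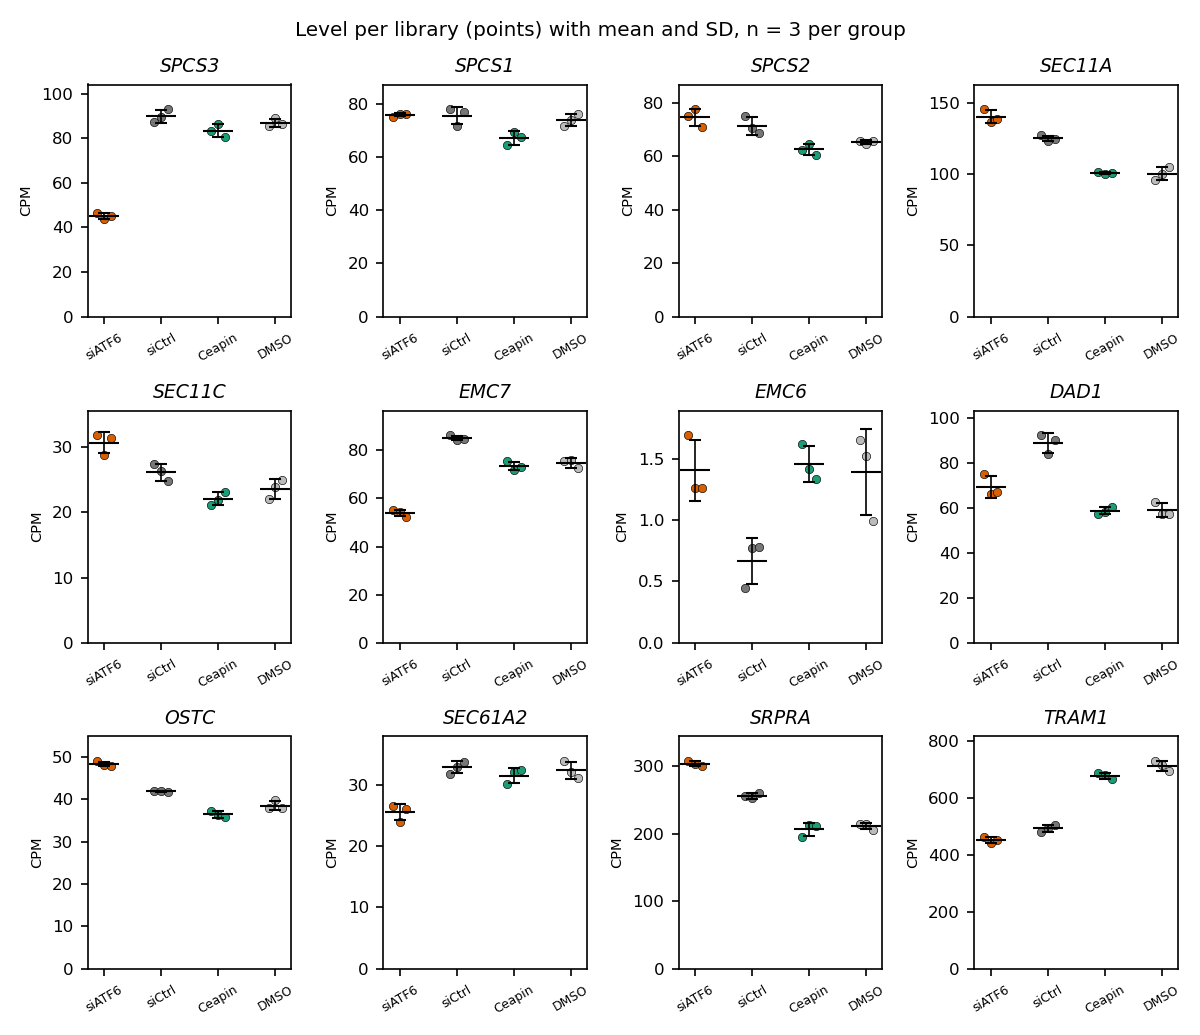
CPM in each library (points) with the mean and SD of 3 libraries for the 5 signal peptidase genes and 7 further members, each axis starting at 0. SPCS3, EMC7 and SEC61A2 are low in siATF6 alone, EMC6 is low in siCtrl alone, and DAD1 is higher in both siRNA groups than in both compound groups.

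In the oligosaccharyltransferase, 2 of 11 genes rose, 4 fell and 5 were not called after ATF6 siRNA. The share called was 54.5%, against 31.4% of all tested genes and 49.6% of those averaging 10 CPM or more. DAD1, a small subunit of every form of the enzyme (chromosome 14, 22564905 to 22589269, − strand), had the largest fall. It stood at 75.0, 66.2 and 67.05 CPM in siATF6 libraries, against 92.2, 83.9 and 90.2 CPM in siCtrl libraries. The groups did not overlap, and the fall was 1.28-fold (log2 fold change −0.35 with SE 0.0426, edgeR adjusted p = 3.84e-08). In the compound arm DAD1 stood at 57.4, 58.0 and 60.4 CPM in Ceapin libraries, against 62.6, 57.3 and 57.1 CPM in DMSO libraries. All Ceapin and DMSO libraries lay below all siATF6 libraries, and the siCtrl libraries were the highest of the 4 groups. The difference between the 2 effects was −0.34 (with SE 0.0639, edgeR adjusted p = 9.46e-05).

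OSTC, which ties the STT3A form of the enzyme to the channel (chromosome 4, 108650584 to 108667820, + strand), moved the other way. It stood at 48.95, 48.2 and 47.9 CPM in siATF6 libraries, against 41.9, 42.0 and 41.7 CPM in siCtrl libraries. The groups were clear of each other, and OSTC rose 1.16-fold (log2 fold change 0.21 with SE 0.0398, edgeR adjusted p = 8.7e-05). In the compound arm it stood at 37.2, 36.3 and 35.7 CPM in Ceapin libraries, against 37.9, 39.8 and 37.9 CPM in DMSO libraries, without overlap. The change there was −0.08 (95% interval −0.17 to 0.01), and the difference between the 2 effects was 0.29 (with SE 0.0587, edgeR adjusted p = 3.11e-04). OSTC shares 25.31% of its 31-base words with transcripts of 8 other genes, most often the copy OSTCP1, so its counts are uncertain.

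The catalytic subunit of the co-translational form, STT3A, was not called (454.5 ± 13.8 CPM in siATF6, 441.1 ± 6.58 CPM in siCtrl, edgeR adjusted p = 0.162). STT3B, the catalytic subunit that can also act after translation, fell (309.2 ± 6.41 CPM in siATF6, 332.1 ± 7.09 CPM in siCtrl, log2 fold change −0.10, edgeR adjusted p = 8.07e-04). Of the partners that STT3B uses for cysteine-rich chains, MAGT1 fell (−0.10, edgeR adjusted p = 0.00886) and TUSC3 was not called (0.04). The MAGT1 call was lost without siCtrl replicate 3 (0.0576) and with DESeq2 (0.0725). Per kb of transcript, MAGT1 stood at 22.3 CPM in siATF6 and 23.9 CPM in siCtrl, against 131.4 and 128.2 CPM for TUSC3 in the same groups.

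Among the subunits shared by both forms, RPN2 fell (log2 fold change −0.11, edgeR adjusted p = 1.85e-04), RPN1 was not called (−0.03), and DDOST rose (0.12, edgeR adjusted p = 7.68e-04). DDOST shares 18.82% of its words with other transcripts, most often PINK1-AS. OST4, a very small subunit, had a log2 fold change of 0.04 and KRTCAP2, which like OSTC belongs to the STT3A form, one of −0.07, and neither was called. KRTCAP2 shares 72.8% of its words with other transcripts and is not read further.

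In the EMC, 3 of 9 genes rose, 2 fell and 4 were not called after ATF6 siRNA. The share called was 55.6%, against 31.4% of all tested genes and 49.6% of those averaging 10 CPM or more. EMC7, a subunit on the ER lumen side (chromosome 15, 34084017 to 34101948, − strand), stood at 55.0, 54.5 and 52.5 CPM in siATF6 libraries, against 86.2, 84.3 and 84.7 CPM in siCtrl libraries. The 2 groups were wide apart, and the fall was 1.58-fold (log2 fold change −0.66 with SE 0.0348, edgeR adjusted p = 1.84e-16). Its word site, printed above, lies at base 94 of a 3′ UTR of 317 bases. In the compound arm EMC7 stood at 75.4, 72.0 and 73.3 CPM in Ceapin libraries, against 75.7, 76.0 and 72.5 CPM in DMSO libraries. Those groups overlapped (log2 fold change −0.02, 95% interval −0.09 to 0.05), and the difference between the 2 effects was −0.63 (with SE 0.0488, edgeR adjusted p = 4.32e-12).

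EMC6, a membrane subunit near the insertion site (chromosome 17, 3668815 to 3669668, + strand), had the largest rise and the smallest counts of all members. It had 32, 24 and 24 counts in siATF6 libraries, against 8, 15 and 14 counts in siCtrl libraries. The rise was 2.09-fold (log2 fold change 1.06 with SE 0.276, edgeR adjusted p = 0.00283), and the call was kept under all 20 alternative settings, with adjusted p up to 0.0298. EMC6 had 31, 26 and 24 counts in Ceapin libraries, against 30, 27 and 18 counts in DMSO libraries. The siCtrl libraries were thus lower than those of all 3 other groups, and the range of the siATF6 libraries overlapped that of the compound arm. The difference between the 2 effects (0.99, edgeR adjusted p = 0.0476) was lost under 12 of 19 settings. They include siATF6 replicate 1 or 2, siCtrl replicate 1, Ceapin replicate 2 or 3 and DMSO replicate 1 or 2 left out (edgeR adjusted p of 0.0519 to 0.157).

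The other calls in the EMC were small. EMC3, which with EMC6 forms the insertase core, rose (log2 fold change 0.12, edgeR adjusted p = 0.0236), a call lost without siATF6 replicate 3 (0.0947) or siCtrl replicate 2 (0.276). Its antisense neighbour EMC3-AS1 had 273 to 404 counts per library, and without stated strand use reads of the pair cannot be told apart. EMC4, a further membrane subunit, rose (0.10, adjusted p = 0.0273 in edgeR), lost without siATF6 replicate 2 (0.174), siCtrl replicate 1 (0.0816) or siCtrl replicate 2 (0.0724). EMC1, the large lumenal scaffold, fell (−0.08, adjusted p = 0.0299 in edgeR), a call that ended without siATF6 replicate 1 (0.158) or 2 (0.0810), siCtrl replicate 2 (0.0597) or 3 (0.101), or Ceapin replicate 2 (0.0550). EMC2 and EMC8, on the cytosolic side, EMC9, the paralog of EMC8, and EMC10, on the lumen side, had log2 fold changes of 0.11, 0.10, −0.05 and −0.09 and were not called. EMC10 was called without DMSO replicate 2 (0.0463).

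After Ceapin-A7 the members' changes were small. Of 44 members, 35 had a log2 fold change below 0, with a median of −0.02, against 50.6% of all tested genes and 54.5% of genes averaging 10 CPM or more. The count was 30 with library totals and 37 with DESeq2 size factors. Of the 44 members, 5 had an unadjusted p under 0.05 in edgeR: SPCS1, TRAM1, RPN2, RPN1 and EMC9. So had 2800 of 17823 tested genes and 2191 of the 9647 averaging 10 CPM or more. TRAM1 averaged 676.7 ± 11.5 CPM in Ceapin and 712.3 ± 17.3 CPM in DMSO (log2 fold change −0.07, edgeR adjusted p = 0.0630), and RPN2 averaged 423.5 ± 10.99 CPM in Ceapin and 444.9 ± 5.11 CPM in DMSO (−0.07, edgeR adjusted p = 0.0793). TRAM1 passed the threshold without siCtrl replicate 1 (0.0448) or DMSO replicate 3 (0.0293) and with limma-voom (0.0250), and RPN2 passed it without Ceapin replicate 2 (0.0442). For 38 of the 44 members the 95% interval of the change lay within 0.15 of 0 on the log2 scale, against 16 of 44 after ATF6 siRNA, and for 42 it lay within 0.3, so that a change of the size of SPCS3 or EMC7 lies outside the interval of those 42.

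The effects of siRNA and compound were also set against each other directly. Of the 44 members, 15 differed between the 2 effects (9 higher and 6 lower in the siRNA comparison), or 34.1%, where 23.4% of all tested genes (12.3% higher and 11.1% lower) and 38.1% of those averaging 10 CPM or more differed. Beside those above, SEC11C (0.33), DDOST (0.17), SRP68 (0.17), SEC11A (0.16) and EMC4 (0.16) were higher in the siRNA comparison, and SEC61A2 (−0.32), SEC62 (−0.13) and EMC1 (−0.13) were lower. The calls for SEC11A and EMC4 were lost without DMSO replicate 3 (0.0576 and 0.0683), EMC4 also without siATF6 replicate 2 (0.0644), and EMC1 without siATF6 replicate 1 (0.0501) or Ceapin replicate 2 (0.0568). SRP72 was called without Ceapin replicate 2 (0.0449) or DMSO replicate 1 (0.0479), SPCS2 without siATF6 replicate 3 (0.0449) or siCtrl replicate 1 (0.0366), and EMC3 without siCtrl replicate 3 (0.0468).

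Within the machinery, levels per kb of transcript spanned more than 2 orders of magnitude, a span that rests on EMC6 (8 to 15 counts per siCtrl library). The other members ranged from 6.28 to 214.4 CPM per kb in siCtrl libraries. In siCtrl libraries RPN2 was highest at 214.4 ± 2.26 CPM per kb (SD, n = 3), followed by SRP9 at 204.1 ± 5.87, SSR2 at 193.4 ± 2.25 and TRAM1 at 176.8 ± 4.78 CPM per kb. Neighbours among these 4 lay further apart than the sum of their SDs. The lowest were EMC10 at 7.21 ± 0.182, SRP19 at 6.28 ± 0.0928 and EMC6 at 0.875 ± 0.251 CPM per kb. SPCS3 was the lowest of the signal peptidase genes, at 9.84 CPM per kb in siATF6 and 19.7 CPM per kb in siCtrl, against 91.2 and 90.7 CPM per kb for SPCS1 in the same groups. Lengths were those of the main annotated transcript, which need not be the form these cells use.

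**Figure D4:**
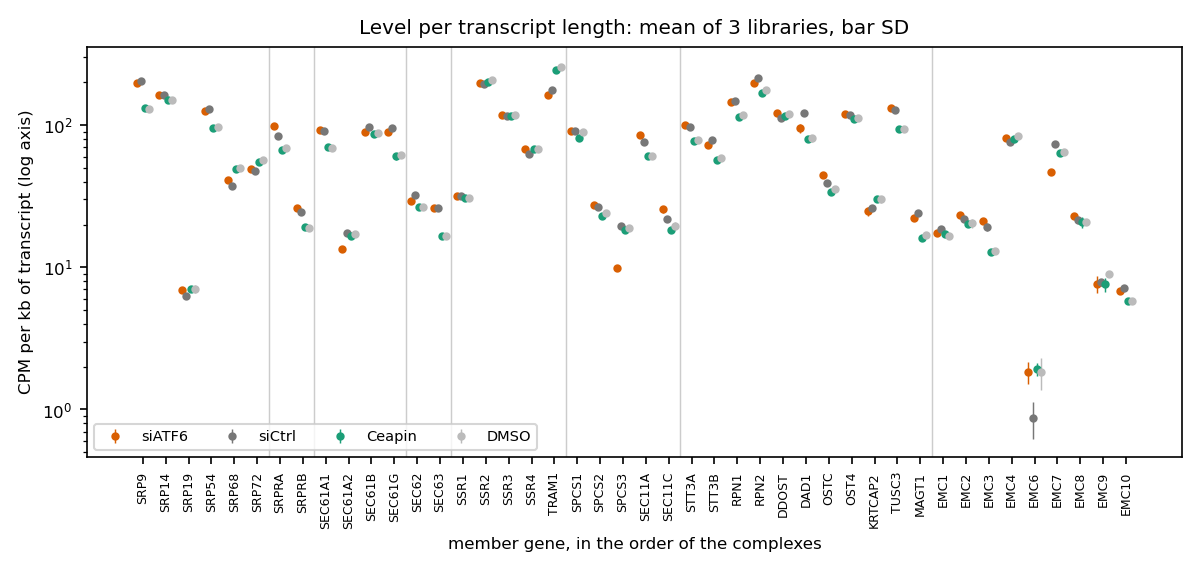
Mean CPM per kb of transcript (log axis) with SD over 3 libraries for each member in siATF6, siCtrl, Ceapin and DMSO. RPN2, SRP9, SSR2 and TRAM1 lie near the top and EMC6 at the bottom; SPCS3 and EMC7 show the siATF6 point well below the other 3.

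Promoters were searched on both strands for letters that ATF6 is known to bind, from 250 bases before to 50 after the RefSeq start (GRCh38.p14), which were listed for 37 of the 44 members. SRPRA, TRAM1, SPCS1, STT3B, RPN1, TUSC3 and EMC2 had no listed promoter and were not searched. None of the 37 had the ERSE letters, CCAAT and CCACG with 9 bases between. Of all 35116 promoters 0.077% had them, and of the 11933 promoters of tested genes 0.117%. None of the 37 had the ERSE-II letters either, ATTGG and CCACG with any base between (0.054% of all promoters and 0.092% of those of tested genes). The letters TGACGTGG, which overlap the CCACG part on the other strand, were in 2 of 37 members, SEC62 (chr3:169966790-169966797) and SRP19 (chr5:112861175-112861182), and in 0.729% of all promoters and 0.93% of those of tested genes. CCACG alone was in 22 of 37 members (59.459%), 49.015% of promoters of tested genes and 38.088% of all promoters. Among related genes with a listed promoter, 3 had the full element. HSPA5 was called after both treatments and SERP1 after the siRNA alone. ALG12 was called after neither (log2 fold change −0.05 after the siRNA and −0.14 after Ceapin-A7). The elements are shown here on the strand of the motif with their fixed ends in capitals.
HSPA5 (chr9:125241391-125241409): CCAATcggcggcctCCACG
SERP1 (chr3:150546710-150546728): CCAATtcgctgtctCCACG
ALG12 (chr22:49918554-49918572): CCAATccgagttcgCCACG
A match describes these letters only and says nothing of binding.

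Genes that work next to the members were read from 6 lists. Of their 63 genes, 15 rose and 9 fell after ATF6 siRNA, with a median log2 fold change of 0.03. The share called was 38.1%, where 31.4% of all tested genes and 49.6% of those averaging 10 CPM or more were called. After Ceapin-A7, 1 fell and none rose, where 4.62% of all tested genes were called. There, 9 of the 63 had an unadjusted p under 0.05 in edgeR. So had 2800 of 17823 tested genes and 2191 of the 9647 averaging 10 CPM or more. Without siATF6 replicate 2, 9 rose and 8 fell after the siRNA. After Ceapin-A7 2 related genes were called without siCtrl replicate 3, Ceapin replicate 2 or DMSO replicate 3. Among 6 further subunits and partners of these complexes, SERP1, MMGT1 and HSPA5 fell and none rose after the siRNA. SERP1, the small channel partner also called RAMP4, stood at 142.6, 136.5 and 127.4 CPM in siATF6 libraries, against 203.1, 205.6 and 201.9 CPM in siCtrl libraries. The groups were far apart (log2 fold change −0.59 with SE 0.0294, edgeR adjusted p = 4.19e-17). MMGT1, the EMC subunit also called EMC5, stood at 56.4, 57.9 and 51.9 CPM in siATF6 libraries, against 77.5, 71.6 and 73.6 CPM in siCtrl libraries. Its groups did not overlap either (−0.42 with SE 0.0427, edgeR adjusted p = 1.13e-09). Both hold the word GAGTCAT printed above, and after Ceapin-A7 neither was called (−0.05 for SERP1 and −0.06 for MMGT1). SERP1 averaged 128.5 CPM in Ceapin and 133.4 CPM in DMSO, and MMGT1 averaged 52.55 and 54.98 CPM in the same groups. For both genes the siCtrl libraries were thus higher than those of every other group. The range of the siATF6 libraries overlapped that of the compound arm.

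HSPA5 (BiP), the chaperone that seals and pulls at the lumenal side of the channel, stood at 1131, 1121 and 1115 CPM in siATF6 libraries, against 1397, 1363 and 1397 CPM in siCtrl libraries. It stood at 940.5, 931.8 and 943.6 CPM in Ceapin libraries, against 1473, 1460 and 1464 CPM in DMSO libraries. The groups were apart in both arms, with log2 fold changes of −0.30 after the siRNA (edgeR adjusted p = 4.61e-15) and −0.64 after Ceapin-A7 (edgeR adjusted p = 1.47e-22), and HSPA5 was the single gene among members and related genes that was called after both treatments.

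Of 9 genes of the multipass translocon, none was called after the siRNA or after Ceapin-A7. After the siRNA 2 had an unadjusted p under 0.05 in edgeR, as had 7001 of 17823 tested genes. Of 8 genes for tail-anchored proteins and the SND route, SGTA (log2 fold change 0.31) and CAMLG (0.15) rose and GET1 (−0.14) fell. SGTA averaged 85.2 CPM in siCtrl, against 105.8 CPM in siATF6, 103.0 CPM in Ceapin and 105.9 CPM in DMSO, so the siCtrl libraries were the lowest. Of 24 genes that make the dolichol-linked sugar donor of the oligosaccharyltransferase, 6 rose and 4 fell. They include the mannosyltransferase ALG3 (0.23), the polyprenol reductase SRD5A3 (−0.26) and the glucosyltransferase ALG10B (−0.20). The groups of ALG10B overlapped, at 24.35 to 27.07 CPM in siATF6 and 27.03 to 30.43 CPM in siCtrl. Of 10 genes that supply the sugar nucleotides for this sugar donor, 4 rose and 1 fell. PMM2, the phosphomannomutase, was at 0.39, GMPPB, which makes GDP-mannose, at 0.27 and GFPT1, the entry enzyme of the hexosamine path, at 0.13. Of 6 genes that handle nascent chains, 3 rose (ZNF598 at 0.17, BTF3 at 0.12 and NEMF at 0.10) and none fell. These calls are at edgeR adjusted p under 0.05 over all tested genes. After the siRNA 31.4% of all tested genes and 49.6% of those averaging 10 CPM or more were called. Without siATF6 replicate 2 the calls of GET1 (0.122), CAMLG (0.230) and ZNF598 (0.0830) were lost. CAMLG was also lost without siCtrl replicate 1 (0.0883), 2 (0.0588) or 3 (0.0778), GET1 without siCtrl replicate 2 (0.0880) and ZNF598 without siCtrl replicate 3 (0.0701). NEMF was lost without siATF6 replicate 3 (0.0646) or siCtrl replicate 1 (0.0569) or 2 (0.0785).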

How the data were processed

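RNA-seq of 12 DU145 libraries (4 groups of 3, from the sample titles) was used. The deposited table of the authors gives expected counts, estimates of reads per gene, made with Salmon on build hg38 per the submitters' processing notes; Salmon's version, the annotation release and the use of strand are not given in the sources used here. Per the labels' protocols, libraries were stranded TruSeq. The deposited counts are whole numbers, not scaled for depth, and every gene has at least 1 count in every library. Columns prefixed NC were matched to siCtrl by elimination and replicate number.

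In R 4.3.3, edgeR 4.0.16 (TMM scaling, filterByExpr by group, quasi-likelihood fit with 1 term per group over 12 libraries, two-sided, Benjamini-Hochberg over 17823 genes) gave 3 contrasts: siATF6 minus siCtrl, Ceapin minus DMSO, and their difference. Means are ± SD of 3 libraries. SEs come from the F statistic and 95% intervals from the t distribution with the fit's degrees of freedom. Alternatives were DESeq2 1.42.0, limma 3.58.1 voom, other scalings and filters, only the 6 libraries of a comparison, a replicate block, adjusted p under 0.01 and each library left out. The pipeline was tested on simulated data.

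Positions, transcript lengths and 3′ UTRs came from GENCODE v29 (GRCh38), using the principal transcript with the longest 3′ UTR, and promoters from RefSeq (GRCh38.p14). Shared 31-base words were counted against all GENCODE v29 transcripts for the 44 members only, not for related genes. Members and lists were chosen with earlier results of these data known, and the background of genes averaging 10 CPM or more was chosen after values were seen. Values in every library are given for the 8 called members per comparison with the largest change, up to 5 for the difference, and up to 3 called related genes per list are named. TRAM1 was given per library after its values were seen.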

Additional observations from a re-analysis of the deposited data

Results flagged for a closer look

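By the test of the difference (edgeR adjusted p under 0.05), the effects of ATF6 siRNA and Ceapin-A7 differed in 15 of 44 members and 15 of 63 related genes. These shares, 34.1% and 23.8%, compare with 23.4% of all tested genes and 38.1% of those averaging 10 CPM or more. Of the related genes, the 10 with values after either treatment given above are listed. Values are log2 differences, siATF6 minus siCtrl less Ceapin minus DMSO, and the agent, transfection and duration of the arms cannot be told apart.

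Among targeting and channel genes the differences were 0.17 for SRP68, 0.28 for SRPRA, −0.32 for SEC61A2 and −0.13 for SEC62. In the signal peptidase they were 0.15 for SPCS1, −0.94 for SPCS3, 0.16 for SEC11A and 0.33 for SEC11C. In the oligosaccharyltransferase they were 0.17 for DDOST, −0.34 for DAD1 and 0.29 for OSTC. In the EMC they were −0.13 for EMC1, 0.16 for EMC4, 0.99 for EMC6 and −0.63 for EMC7.

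Among related genes the difference was −0.36 for MMGT1, −0.53 for SERP1, 0.34 for HSPA5 (which fell more after Ceapin-A7), 0.35 for SGTA, −0.31 for SRD5A3, 0.22 for ALG3, −0.29 for ALG10B, 0.34 for PMM2 (lost without siCtrl replicate 1, adjusted p = 0.0621), 0.38 for GMPPB and 0.17 for BTF3.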

How the results depend on the processing

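Among called members and related genes, no log2 fold change reversed under the alternatives run, while the members' median after siRNA was −0.0026 with library totals. Of the 23 members called after ATF6 siRNA, 15 kept the call in every setting (7 higher and 8 lower), among them SPCS3, EMC7, SEC61A2, DAD1, SRPRA, SEC11C, OSTC and EMC6. DESeq2 called 15 members (7 higher), and at adjusted p under 0.01 there were 7 higher. The calls lost with DESeq2 were SRP72, SRPRB, SEC61B, SSR4, MAGT1, EMC1, EMC3 and EMC4 (DESeq2 adjusted p of 0.0643 to 0.149). With library totals SRP72 and EMC4 were lost (edgeR adjusted p of 0.115 and 0.0559) and EMC10 was gained (0.0333). With each library left out in turn, 16 to 23 members were called after the siRNA, 7 to 12 higher (7 without siCtrl replicate 2) and 8 to 12 lower. After Ceapin-A7 DESeq2 called 0 members and 530 genes in all, limma-voom called 2 members, and adjusted p under 0.01 left 0 members and 472 genes. Leaving out libraries gave 0 to 2 members, all lower (0 without Ceapin replicate 1, Ceapin replicate 3 or DMSO replicate 2), and 578 to 846 genes in all. For the difference it gave 12 to 16 members, and 10 of 15 calls were kept in every setting. Same-numbered libraries did not deviate together (correlations of −0.0289 to 0.0355), and with the number as a replicate block 22, 1 and 14 members were called in the 3 contrasts. Of the related genes, 15 of 24 calls after the siRNA were kept in every setting. Leaving out libraries gave 17 to 24 related genes after the siRNA (9 to 15 higher, 8 to 9 lower), 1 to 2 after Ceapin-A7 and 13 to 17 for the difference; at adjusted p under 0.01, 5 were higher in the difference. With each library left out, the ATF6 log2 fold change after siRNA was −2.29 to −2.26. The 6-library fit cannot be applied to the difference.

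Depth limits EMC6, with 8 to 32 counts per library. Other scalings shifted the median change of all genes by −0.0191 to 0.0079 on the log2 scale. Genes at 0 in any library are not analysed here.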

Other observations

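The control groups of the 2 arms differed in the level of these genes, with no test made, since the arms differ in transfection, culture time and solvent. The ratio of siCtrl to DMSO was above 1 for 32 of 44 members (median log2 ratio 0.12), against 49.2% of all tested genes (median −0.01). This was not worked out for genes averaging 10 CPM or more. The ratio was highest among members for SEC63 (1.58), SRP9 (1.56) and SEC61G (1.545). It was lowest for EMC6 (0.478), TRAM1 (0.691) and SRP68 (0.749).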
